A study of Mus musculus with 8 samples.

Results

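The genes examined were 45 genes of the DNA replication machinery, taken by gene symbol: the MCM helicase core, the factors that load and activate it, the origin recognition complex, the sliding clamp and its loader, the replicative polymerases and primase, the single-strand binding and Okazaki fragment joining factors, and 5 enzymes that supply deoxynucleotides. The rule used names and no measured value, although the genes were chosen with earlier results of these data known. All 45 were found among the 24015 genes of the count table, all 45 passed the filter on low counts that left 13908 genes for testing, and each had counts in all 8 libraries.

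In dividing animal cells, origins of replication are marked by the origin recognition complex and licensed in G1, when Cdc6 and Cdt1 load the MCM ring onto DNA. In S phase the ring is activated by Mcm10, Cdc45 and the GINS complex, primase lays down primers, and the polymerases extend them with the PCNA clamp. Many of these genes are transcribed in late G1 and S phase under E2F factors, so that their transcripts are widely read as a mark of cycling cells. At midgestation, hematopoietic clusters bud from the endothelium of the dorsal aorta and of the vitelline and umbilical arteries, and contain the precursors of hematopoietic stem cells.

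RNA was measured in 8 libraries from mouse embryos of the C57BL/6 strain at E11.5, 2 for each of 4 groups: clusters from wild type and from Sl/Sl embryos, and endothelium from the same genotypes. Sl/Sl embryos are homozygous for a deletion at the Steel locus that removes Kitl, the gene for Kit ligand, so the comparison of genotypes asks what its absence does to each cell type. Both cell types came from the AGM with its vitelline and umbilical arteries, the clusters sorted as Ter119- VE-Cadherin+ Kit+ and the endothelium as Ter119- VE-Cadherin+ Kit- CD41- CD45-. Each library came from 100 sorted cells of pools of 1 to 4 embryos of 1 genotype, taken over 2 sorting experiments whose assignment to libraries is not given in the sources used here, and p-values therefore measure only the spread between these libraries.

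Counts on genes totalled between 8933236 and 13428214 per library. Kitl counts were 1250 and 923 in the wild type endothelial libraries against 6 and 2 in the Sl/Sl ones, and 110 and 0 against 1 and 3 in clusters, which fits the genotype labels in endothelium. The 10 endothelial markers summed to 5280 to 6030 CPM (counts scaled by the library total) in the endothelium libraries and to 224 to 2270 in the cluster libraries, where Cdh5, which encodes the VE-Cadherin used in the sort, ranged from 12.3 to 235 CPM. The 10 hematopoietic markers summed to 1220 to 1790 CPM in clusters and to 257 to 312 in endothelium. The 9 macrophage markers summed to 264 to 855 CPM in clusters and to 6.92 to 35.0 in endothelium, while the 9 mesenchymal and muscle markers reached 2920 CPM in 1 library, Sl/Sl clusters replicate 2, against 278 to 727 in the other 7. Erythroid markers summed to 24.4 to 266 CPM and germ cell markers to 7.06 to 107 CPM over the 8 libraries, with Pou5f1 at 3 counts or fewer in each.

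Promoter sequences of 4 genes that were higher in clusters are shown because they hold, as a description of the sequence only, the letters through which E2F factors are known to bind replication genes. Each line gives the 180 bases upstream of the RefSeq start site on the strand of the gene (GRCm38.p6), with a match to TTTCCCGC, TTTCGCGC, TTTGCCGC or TTTGGCGC on either strand in capitals. The windows are chr8:75109329-75109508 on the plus strand for Mcm5, chr1:128359706-128359885 on the minus strand for Mcm6, chr5:138171884-138172063 on the minus strand for Mcm7 and chr11:98907971-98908150 on the plus strand for Cdc6.
Mcm5: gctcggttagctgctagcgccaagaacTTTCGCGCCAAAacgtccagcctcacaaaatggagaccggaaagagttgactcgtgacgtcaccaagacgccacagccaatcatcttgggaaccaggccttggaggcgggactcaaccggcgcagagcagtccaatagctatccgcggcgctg
Mcm6: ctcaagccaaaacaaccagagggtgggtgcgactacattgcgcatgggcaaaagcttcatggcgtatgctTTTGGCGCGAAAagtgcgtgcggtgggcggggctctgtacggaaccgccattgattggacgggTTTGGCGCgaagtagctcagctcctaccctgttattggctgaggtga
Mcm7: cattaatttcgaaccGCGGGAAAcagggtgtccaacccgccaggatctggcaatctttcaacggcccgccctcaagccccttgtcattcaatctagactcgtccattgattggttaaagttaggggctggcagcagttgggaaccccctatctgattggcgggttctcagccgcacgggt
Cdc6: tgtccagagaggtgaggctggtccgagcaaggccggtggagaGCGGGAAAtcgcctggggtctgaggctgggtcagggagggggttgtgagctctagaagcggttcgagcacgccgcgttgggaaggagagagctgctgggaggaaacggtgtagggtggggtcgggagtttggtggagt

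The Mcm5 window held 2 overlapping matches on opposite strands, and the Mcm6 window held an overlapping pair and a single match closer to the start. RefSeq windows, from 250 bases before to 50 after each start site, were matched by symbol for 38 of the 45 genes. The E2F letters occurred in 15 of these 38 genes (39.5%), against 4.62% of the 10399 tested genes with a window and 2.26% of all 32851 windows. They were found in 4 of 5 MCM genes and in 0 of 5 genes of nucleotide synthesis. Among genes higher in clusters in the test given next, 6 of 17 (35.3%) held them, and among the rest 9 of 21 (42.9%). CCAAT, the site of NF-Y, was in 23 of the 38 genes (60.5%) and in 42.6% of the tested genes.

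Replication transcripts were more abundant in clusters than in endothelium. The 45 genes took 0.767% to 0.851% of all counts in the 4 cluster libraries and 0.436% to 0.489% in the 4 endothelium libraries. Summed over the 45 genes, levels per length (RPKM, counts divided by exon length in kilobases and by the library total) were 4140 and 4380 in wild type clusters, 4050 and 3940 in Sl/Sl clusters, 2440 and 2620 in wild type endothelium, with 2520 and 2350 in Sl/Sl endothelium. All cluster libraries were above all endothelium libraries, and the means of 4130 ± 187 and 2480 ± 117 RPKM (SD, n = 4) differed 1.66-fold. With totals scaled by TMM, the ratio was 1.52. In bulk libraries of sorted cells, a larger share of cycling cells and more RNA per cell cannot be told apart.

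**Figure D1:**
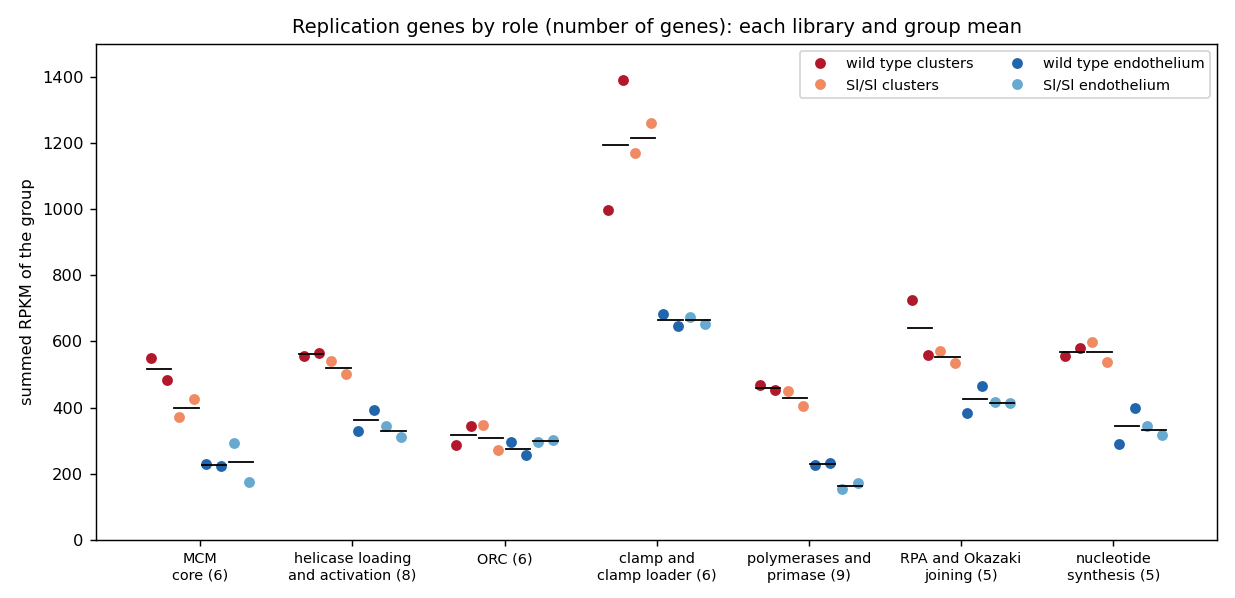
Summed RPKM (linear axis from 0) of each role group in each of the 8 libraries, with points for libraries and bars for group means of 2. The 4 cluster libraries were above the 4 endothelium libraries in each group except the origin recognition complex, where cluster libraries ran from 271 to 347 and endothelium libraries from 257 to 303.

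By role, the summed level was highest for the clamp and its loader, at 1210 ± 165 RPKM in clusters and 664 ± 16.2 in endothelium (SD, n = 4). The ratio of clusters to endothelium was 2.26 for polymerases and primase, 1.99 for the MCM core, 1.82 for the clamp and its loader, 1.68 for nucleotide synthesis, 1.57 for helicase loading and activation and 1.42 for single-strand binding and Okazaki joining. The origin recognition complex stood at 312 ± 39.5 RPKM in clusters and 288 ± 20.8 in endothelium, a ratio of 1.08, and its libraries overlapped.

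In a test of each gene over all 8 libraries (edgeR's quasi-likelihood test, cluster groups against endothelium groups over both genotypes, Benjamini-Hochberg adjusted p under 0.1), 18 of the 45 genes were higher in clusters and 0 were lower. Over all genes tested, 8.12% were higher in clusters by the same rule. The fold change was positive for 41 of the 45, with a median log2 fold change of 0.69 against 0.067 over all genes tested. At an unadjusted p under 0.05, 25 of the 45 were higher and 0 lower, against 13.7% of all genes tested that were higher. DESeq2, with a filter of its own, called 24 of the 45, all higher. It called 1901 genes higher in all, a number equal to 13.7% of the 13908 genes tested by edgeR. Every cluster library was above every endothelium library, on TMM-scaled values, for 20 of the 45, which held for 9.57% of all genes tested. With plain totals the 45 genes gave 25, and the share over all genes was not computed on that scale. Leaving out each library in turn, 9 of the 18 kept their call in all 8 fits: Mcm5, Mcm6, Mcm7, Cdc6, Mcm10, Rfc2, Rfc5, Prim1 and Rpa2. Between 12 and 17 of the 45 were called in these fits.

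**Figure D2:**
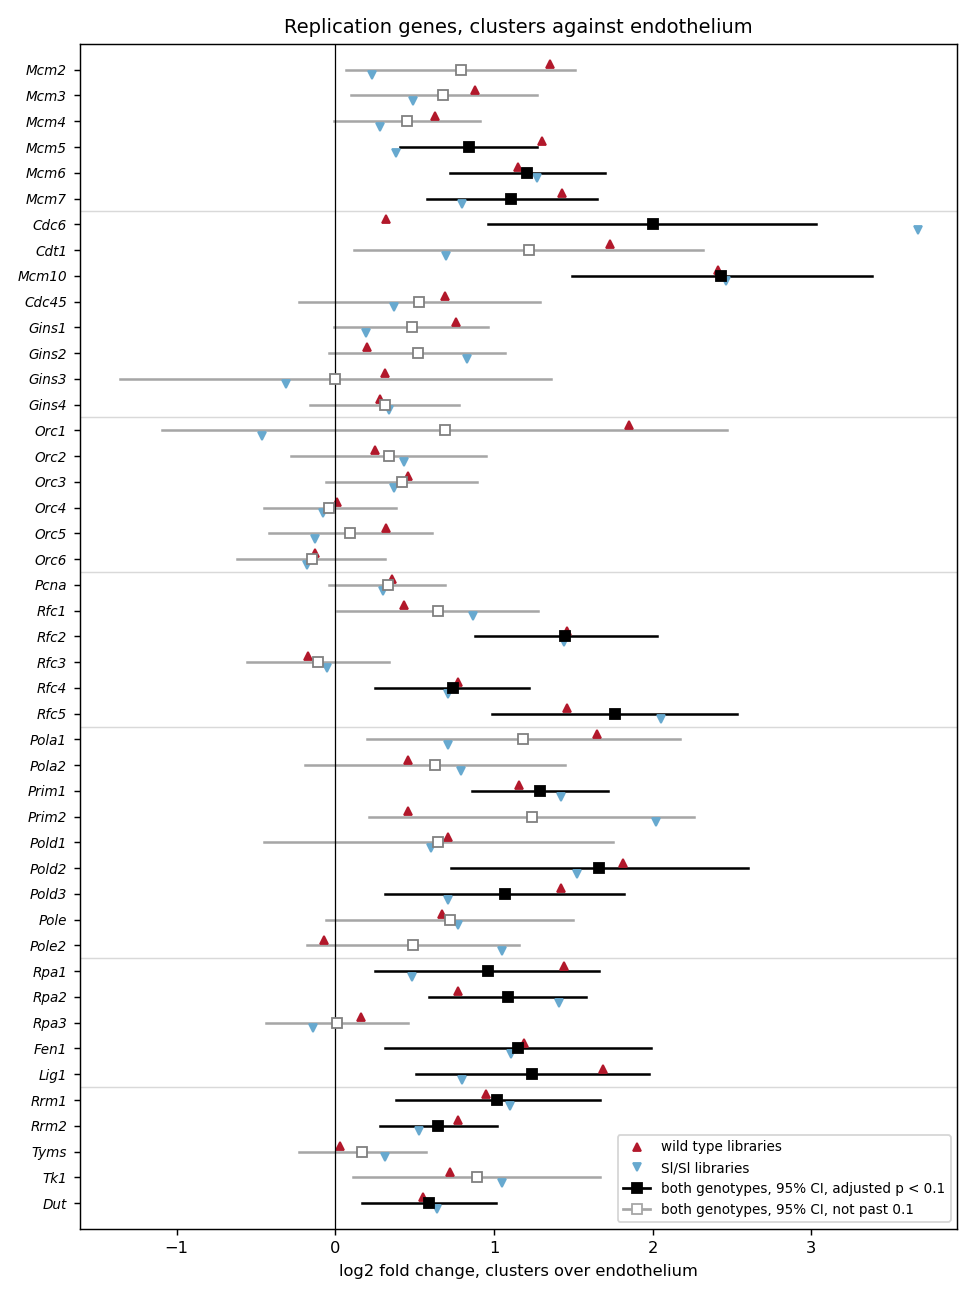
Log2 fold change of each of the 45 genes, clusters over endothelium (x axis), in role order. Squares with 95% confidence intervals give the test over both genotypes, filled for the 18 genes past adjusted p 0.1, and triangles give each genotype by itself; the squares run from -0.15 for Orc6 to 2.43 for Mcm10 and the triangles from -0.46 (Orc1, Sl/Sl) to 3.67 (Cdc6, Sl/Sl).

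The MCM helicase core, the ring of Mcm2 to Mcm7 that unwinds DNA, was higher in clusters for Mcm5, Mcm6 and Mcm7. Mcm6 (mm9 chr1:130228168-130256233, minus strand), at the highest level of the 6, had RPKM of 142 and 129 in wild type clusters, 117 and 131 in Sl/Sl clusters, 53.6 and 58.2 in wild type endothelium, with 61.8 and 32.5 in Sl/Sl endothelium. All cluster values were above all endothelium values, and the log2 fold change was 1.21 (SE 0.22, edgeR adjusted p = 0.00917). Mcm7 (mm9 chr5:138605817-138613090, minus strand), the lowest of the 6 by mean level, had RPKM of 53.6 and 56.0, 38.9 and 42.4, 20.7 and 16.6, and 23.7 and 19.0 in the same order of groups. Again the cell types did not overlap, with a log2 fold change of 1.11 (SE 0.24, edgeR adjusted p = 0.0185). Mcm5 (mm9 chr8:77633427-77652338, plus strand) had RPKM of 80.5 and 71.0 in wild type clusters, 49.7 and 65.3 in Sl/Sl clusters, 26.6 and 29.8 in wild type endothelium, with 38.1 and 42.0 in Sl/Sl endothelium. The gap between cell types was wider in wild type than in Sl/Sl libraries, and the log2 fold change over both was 0.84 (SE 0.19, edgeR adjusted p = 0.0239). The other 3, Mcm2, Mcm3 and Mcm4, had log2 fold changes of 0.79, 0.68 and 0.45 and did not pass the adjusted threshold.

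Among the 8 loading and activation factors, Mcm10 and Cdc6 were higher in clusters. Mcm10 (mm9 chr2:4911770-4933837, minus strand), which helps to activate the helicase, was the lowest of these 8 by level and had the largest log2 fold change of the 45 genes in this test, 2.43 (SE 0.42, edgeR adjusted p = 0.00753). Its RPKM was 21.3 and 21.1 in wild type clusters, 8.14 and 15.8 in Sl/Sl clusters, 3.46 and 3.85 in wild type endothelium, with 2.38 and 1.57 in Sl/Sl endothelium. The lowest cluster value was more than any endothelium value. Cdc6 (mm9 chr11:98769203-98785256, plus strand), the ATPase that loads MCM rings, had RPKM of 15.1 and 12.1 in wild type clusters, 13.2 and 19.3 in Sl/Sl clusters, 11.6 and 8.35 in wild type endothelium, but 0.465 and 1.86 in Sl/Sl endothelium. The cell types were separated in both genotypes, narrowly in wild type, and the log2 fold change over both was 2.00 (SE 0.46, edgeR adjusted p = 0.0249). It was 0.32 in wild type alone (95% confidence interval -1.08 to 1.72) and 3.67 in Sl/Sl alone (2.10 to 5.23). The joint value thus came mostly from the Sl/Sl libraries. Gins2, a GINS subunit at the highest level of the 8, had RPKM of 141 and 171 in wild type clusters, 181 and 180 in Sl/Sl clusters, 89.1 and 159 in wild type endothelium, with 101 and 85.1 in Sl/Sl endothelium, which overlapped. Its exons share 11.4% of their length with Gse1 on the other strand, and the strand setting of the counting is not given in the sources used here. Cdt1, Cdc45 and the GINS subunits Gins1 to Gins4 had log2 fold changes of 0.00 (Gins3) to 1.22 (Cdt1), and none of them passed the threshold.

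The origin recognition complex was the group in which 0 of 6 genes passed, with edgeR, with DESeq2 and at an unadjusted p under 0.05. The 6 log2 fold changes ran from -0.15 for Orc6 to 0.69 for Orc1, with a median of 0.21. Orc6, at the highest level, had RPKM of 134 and 159 in wild type clusters, 181 and 117 in Sl/Sl clusters, 162 and 133 in wild type endothelium, with 161 and 147 in Sl/Sl endothelium. Orc1, the subunit known to vary through the cell cycle and the gene at the lowest level of all 45, had RPKM of 7.72 and 10.2, 9.45 and 2.47, 0.362 and 4.14, and 6.30 and 8.85 in the same order. Its replicates in wild type endothelium, 14 and 131 counts, were 11.4-fold apart, the widest gap of any of the 45 genes within a group. The 95% confidence intervals lay within a 2-fold change in either direction for all of the 6 except Orc1, for example -0.45 to 0.38 for Orc4 and -0.62 to 0.31 for Orc6.

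The clamp loader was higher in clusters for Rfc2, Rfc4 and Rfc5, 3 of the 4 small subunits that place the clamp on DNA. Rfc2 (mm9 chr5:135058560-135074198, plus strand), the highest of the group, had RPKM of 268 and 537 in wild type clusters, 324 and 457 in Sl/Sl clusters, 115 and 154 in wild type endothelium, with 123 and 137 in Sl/Sl endothelium. Its lowest cluster value was above its highest endothelium value, with a log2 fold change of 1.45 (SE 0.25, edgeR adjusted p = 0.00791). Rfc5 (mm9 chr5:117829154-117839032, minus strand) had RPKM of 90.6 and 110, 137 and 92.3, 31.3 and 35.6, and 37.7 and 13.3 in the same order, with a log2 fold change of 1.76 (SE 0.34, edgeR adjusted p = 0.0127). Rfc3, the remaining small subunit, gave no such separation: it had 119 to 179 RPKM in clusters and 142 to 174 in endothelium, and a log2 fold change of -0.11. Rfc1, the large subunit and the lowest of the group, had RPKM of 37.9 and 19.8 in wild type clusters, 16.2 and 27.6 in Sl/Sl clusters, 20.6 and 18.3 in wild type endothelium, with 11.6 and 10.2 in Sl/Sl endothelium. Pcna, the clamp, had 223 to 272 RPKM in clusters and 169 to 202 in endothelium. These did not overlap, yet the log2 fold change of 0.33 (SE 0.16, edgeR adjusted p = 0.231) did not pass.

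**Figure D3:**
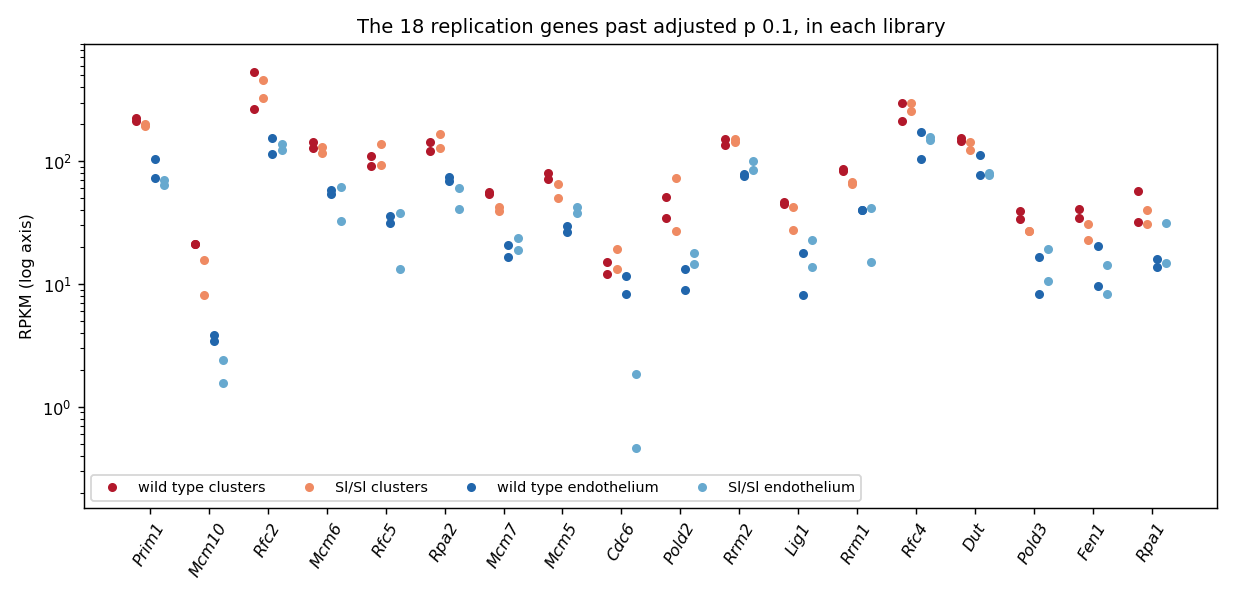
RPKM in each of the 8 libraries (log axis) for the 18 genes past adjusted p 0.1, ordered by p from left to right. Levels span from 0.465 RPKM (Cdc6, Sl/Sl endothelium) to 537 (Rfc2, wild type clusters), and Cdc6 in Sl/Sl endothelium lies apart from its other libraries.

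The polymerases and primase gave the gene with the smallest p of the 45, Prim1 (mm9 chr10:127452271-127467086, plus strand), the catalytic subunit of primase and the highest of this group. It had RPKM of 224 and 213 in wild type clusters, 193 and 200 in Sl/Sl clusters, 73.1 and 105 in wild type endothelium, with 70.8 and 63.4 in Sl/Sl endothelium. The cell types were far apart in both genotypes, with a log2 fold change of 1.29 (SE 0.19, edgeR adjusted p = 0.00379). Pold2 (mm9 chr11:5772183-5778259, minus strand), a subunit of polymerase delta, had RPKM of 50.6 and 34.6, 73.4 and 27.1, 8.86 and 13.3, and 17.7 and 14.5 in the same order, with a log2 fold change of 1.66 (SE 0.41, edgeR adjusted p = 0.0339). The Sl/Sl cluster libraries were the most uneven, and without Sl/Sl clusters replicate 1 its value was 1.19 and its adjusted p 0.159. Pold3, another subunit of polymerase delta, also passed. Pola1, the catalytic subunit of polymerase alpha and the lowest of the group, had RPKM of 17.9 and 12.0 in wild type clusters, 12.8 and 11.9 in Sl/Sl clusters, 1.78 and 6.79 in wild type endothelium, with 7.64 and 6.09 in Sl/Sl endothelium. Its libraries did not overlap, and its log2 fold change of 1.18 (SE 0.44) had an edgeR adjusted p of 0.124. Pola2, Prim2, Pold1, Pole and Pole2 had log2 fold changes of 0.49 to 1.24 and did not pass.

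Of the RPA subunits, which coat single-stranded DNA, Rpa1 and Rpa2 were higher in clusters, and so were Fen1 and Lig1, which trim and join Okazaki fragments. Rpa2 (mm9 chr4:132324275-132334661, plus strand) had RPKM of 121 and 144 in wild type clusters, 166 and 129 in Sl/Sl clusters, 74.5 and 68.7 in wild type endothelium, with 40.9 and 60.7 in Sl/Sl endothelium. The cell types did not overlap, and the log2 fold change was 1.09 (SE 0.22, edgeR adjusted p = 0.0148). Rpa3, the small subunit and the highest of all 45 genes, had RPKM of 459 and 305, 324 and 294, 275 and 346, and 322 and 302 in the same order, with a log2 fold change of 0.01 (SE 0.20). Fen1, the lowest of its group, had RPKM of 40.5 and 34.4, 22.7 and 30.7, 9.57 and 20.3, and 8.32 and 14.2, again in that order. All Fen1 cluster values were above its endothelium values. In nucleotide synthesis, both subunits of ribonucleotide reductase, Rrm1 and Rrm2, and the dUTPase gene Dut passed. Rrm2, the highest of these, had RPKM of 135 and 151 in wild type clusters, 142 and 151 in Sl/Sl clusters, 78.5 and 75.2 in wild type endothelium, with 101 and 84.7 in Sl/Sl endothelium. Rrm1, the lowest, had RPKM of 85.6 and 83.9, 65.2 and 67.6, 40.1 and 40.2, and 41.9 and 15. Thymidylate synthase, Tyms, and thymidine kinase, Tk1, had log2 fold changes of 0.17 and 0.89 and did not pass. The called genes outside the 10 with the smallest p (Rrm2, Lig1, Rrm1, Rfc4, Dut, Pold3, Fen1 and Rpa1) had log2 fold changes of 0.59 (Dut) to 1.24 (Lig1). Each of these 8 lost its call in at least 1 fit without a library, and Rfc4 shares 13.2% of its exon length with Eif4a2 on the other strand.

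In wild type libraries alone, 7 of the 45 genes were higher in clusters and 0 lower (edgeR's quasi-likelihood test), with 3.68% of all genes tested higher. The 7 were Mcm5 (log2 fold change 1.30), Prim1 (1.16), Mcm7 (1.43), Rfc2 (1.46), Mcm10 (2.41), Mcm6 (1.15) and Lig1 (1.69), with adjusted p between 0.0302 for Mcm5 and 0.0796 for Lig1. Leaving out single libraries moved Rfc2 from 0.86 (without wild type clusters replicate 2) to 1.90 (without wild type clusters replicate 1), and Lig1 from 1.22 to 2.39 (without wild type endothelium replicate 1 or replicate 2). Lig1, the ligase, had RPKM of 46.9 and 44.6 in wild type clusters and 8.15 and 17.7 in wild type endothelium. Both cluster libraries were above both endothelium libraries for 31 of the 45 on TMM-scaled values, which held for 25.6% of all genes tested. Without wild type endothelium replicate 1, Mcm5, Mcm6, Mcm10 and Prim1 were at 1.19, 1.06, 2.31 and 0.90, while Mcm7 rose to 1.57.

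In Sl/Sl libraries alone, 6 of the 45 were higher in clusters and 0 lower (edgeR's quasi-likelihood test), with 1.84% of all genes tested higher. These were Cdc6 (log2 fold change 3.67), Prim1 (1.42), Rpa2 (1.41), Rfc5 (2.05), Mcm10 (2.46) and Mcm6 (1.27), with adjusted p from 0.0405 for Cdc6 to 0.0945 for Mcm6. Without Sl/Sl endothelium replicate 1 or replicate 2, Cdc6 was at 3.00 or 5.02 and Rfc5 at 2.99 or 1.52. On TMM-scaled values, both cluster libraries were above both endothelium libraries for 29 of the 45, against 24.4% of all genes tested. They were below for 1, Rpa3, whose libraries overlapped with plain totals. The share of all genes tested that were below was not computed. Without Sl/Sl clusters replicate 2, the median log2 fold change of the 45 went from 0.70 to 0.53. That library held 2920 CPM of mesenchymal and muscle markers, and their part in this shift was not tested. Mcm6, Mcm10 and Prim1 were called in both genotypes, 3 of the 7 in wild type and of the 6 in Sl/Sl. The share of all genes called in both is not given here. All 10 called in either were among the 18 of the joint test. That test averages the 2 comparisons over the same libraries, so this overlap is not separate evidence. The wild type and Sl/Sl comparisons share no library, but share the estimate of the spread. Across the 45 genes their log2 fold changes had a Pearson correlation of 0.30, against 0.43 across all genes tested, and 37 of the 45 were positive in both, against 35.6% of all genes tested.

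The macrophage and hematopoietic markers moved with the difference between cell types, at the summed levels given above, and their part in the replication result was not tested. Among the cluster libraries the summed replication level ranged from 3940 to 4380 RPKM while the endothelial markers ranged from 224 to 2270 CPM and the macrophage markers from 264 to 855 CPM. Replicates of the 45 genes were mostly close. Gaps over 2-fold in RPKM were seen for 3 and 2 of the 45 in clusters of wild type and Sl/Sl embryos, and for 9 and 10 in their endothelium. The shares over all genes tested were 39.7%, 37.2%, 40.9% and 42.0%. Those shares used TMM-scaled values, took genes absent from a single replicate as gaps, and were not matched on level.

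Other genes that act with the replication machinery were taken as lists by name. Of 27 further replication factors, 5 were higher in clusters and 0 lower (edgeR's quasi-likelihood test over both genotypes), with a median log2 fold change of 0.55. By the same rule, 8.12% of all genes tested were higher in clusters. The 5 included Rnaseh2a, a subunit of the enzyme that removes RNA from DNA (1.45, SE 0.25), Gmnn, the inhibitor of Cdt1 (0.88, SE 0.17), Dscc1, part of an alternative clamp loader (1.94, SE 0.40), and Top2a, a topoisomerase (1.00, SE 0.24). Of 13 further nucleotide enzymes, 6 were higher and 0 lower, with a median of 0.72. The dNTP hydrolase Samhd1 had a log2 fold change of 1.66 (SE 0.27), the dCTP pyrophosphatase Dctpp1 0.91 (SE 0.16), the folate enzyme Mthfd1 1.44 (SE 0.32) and thymidylate kinase Dtymk 0.57 (SE 0.15). Of 8 genes of histone supply and chromatin copying, the chaperone genes Chaf1a (1.65, SE 0.45) and Asf1b (0.86, SE 0.29) were higher, and 0 were lower. The E2F factors, their partners and the pocket proteins gave 0 of 13 past the threshold and a median of 0.30. Of these 13, Tfdp1, a partner of E2F factors, was the 1 gene at an unadjusted p under 0.05, with a log2 fold change of 0.84 (SE 0.30), and DESeq2 called 1.

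Loss of Kitl was not accompanied by a detected change of any of the 45 genes in clusters. In Sl/Sl against wild type clusters, 0 of the 45 genes and 0% of all genes tested passed (edgeR's quasi-likelihood test), 0 of the 45 and 4.22% of all genes tested had an unadjusted p under 0.05, and DESeq2 called 0 of the 45 and 175 genes in all (1.26%). The median log2 fold change of the 45 was -0.14 (29 negative, 16 positive), against 0.03 over all genes tested. The smallest p values belonged to Gins1, Mcm2, Mcm4 and Tyms. Gins1, a GINS subunit, had RPKM of 154 and 147 in wild type, compared with 101 and 96.2 in Sl/Sl clusters, a log2 fold change of -0.59 with a 95% confidence interval of -1.28 to 0.09. Mcm2 had 73.0 and 55.0 against 30.8 and 41.8 RPKM (-0.80, interval -1.83 to 0.22), and Mcm4 had 74.5 and 78.4 against 53.0 and 57.9 (-0.45, interval -1.10 to 0.20). Tyms was the other way, with 85.8 and 88.7 RPKM in wild type against 122 and 100 in Sl/Sl clusters (0.37, interval -0.20 to 0.93), and was at 0.18 without Sl/Sl clusters replicate 1.

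On TMM-scaled values, both Sl/Sl cluster libraries were below both wild type ones for 16 of the 45 genes, against 16.2% of all genes tested, and above them for 3, against 16.4%. The 16 included all 6 MCM core genes, whose log2 fold changes ran from -0.80 for Mcm2 to -0.12 for Mcm6 with a median of -0.40. The summed MCM level was 551 and 483 RPKM in wild type clusters and 371 and 425 in Sl/Sl clusters. None of the 6 passed the test, the smallest unadjusted p among them being 0.110 by edgeR. The other 10 were Mcm10, Gins1, Orc2, Prim1, Pold1, Pold3, Fen1, Lig1, Rrm1 and Dut, and the 3 higher ones were Gins2, Orc3 and Tyms. With plain totals 15 were below, since Mcm6 and Pold1 then overlapped and Pcna was below. Intervals were wide, with a median half-width of 0.87 on the log2 scale, and lay within a 2-fold change in either direction for 18 of the 45.

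**Figure D4:**
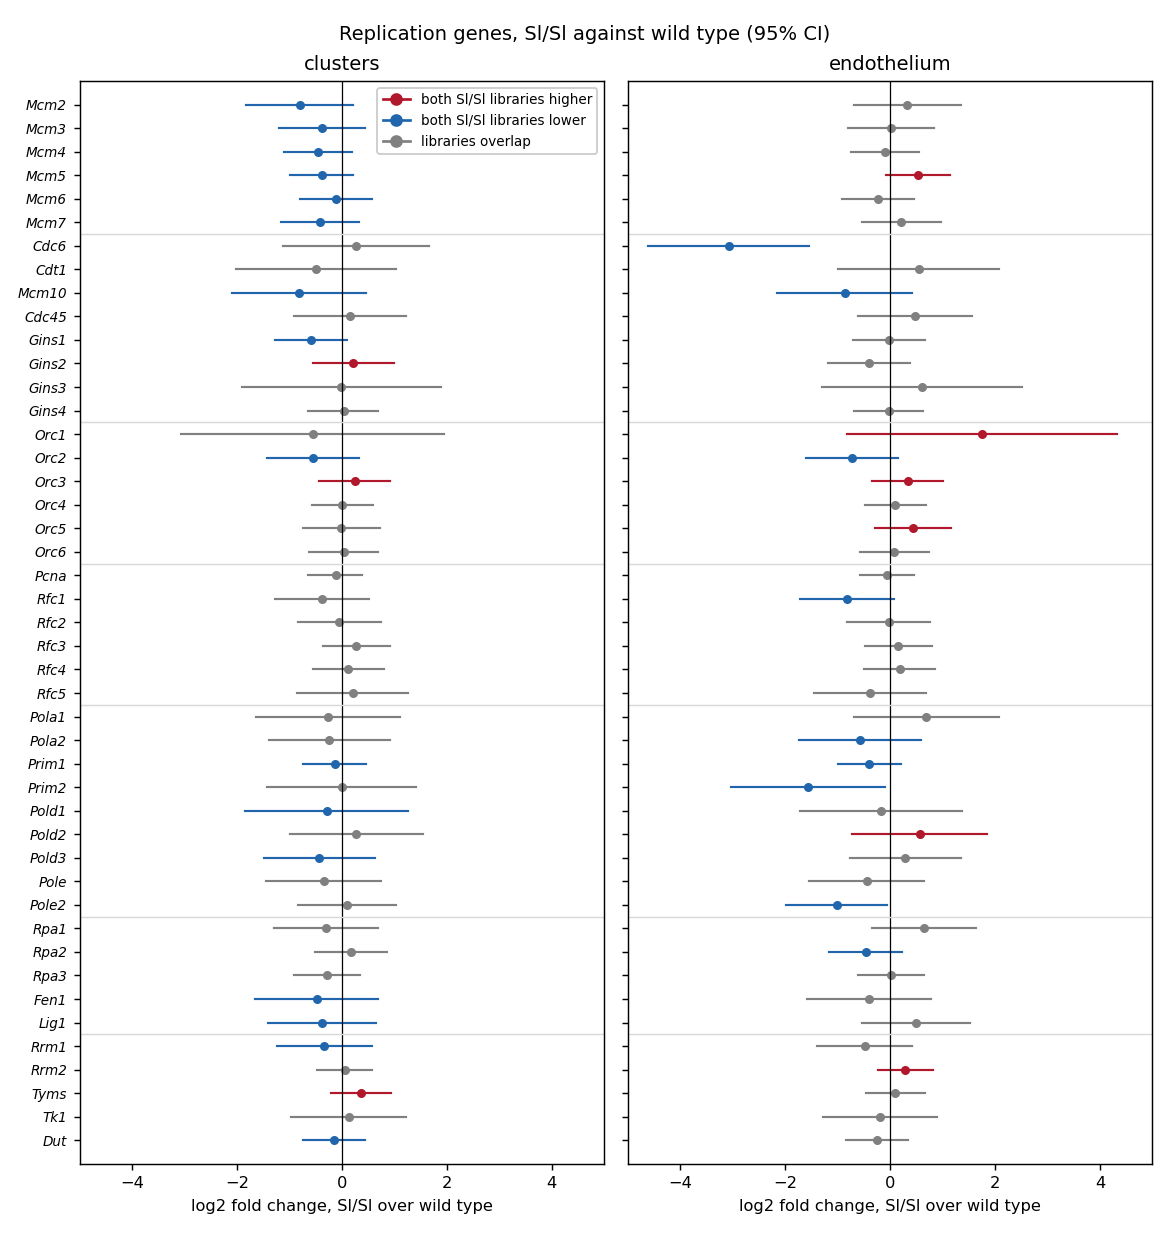
Log2 fold change of the 45 genes, Sl/Sl over wild type (x axis), with 95% confidence intervals, in clusters (left) and endothelium (right). Colors mark genes whose 2 Sl/Sl libraries were both above or both below the 2 wild type libraries; Cdc6 in endothelium, at -3.08, lies farthest from 0.

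In endothelium, 0 of the 45 and again 0% of all genes tested passed between genotypes (edgeR's quasi-likelihood test), 3 of the 45 and 4.17% of all genes tested had an unadjusted p under 0.05, and DESeq2 called 1 of the 45 and 179 genes in all (1.29%). The median log2 fold change of the 45 was -0.02. The gene called by DESeq2 was Cdc6, whose counts were 700 and 412 in wild type endothelium against 26 and 78 without Kitl. Both Sl/Sl libraries were far below both wild type libraries, at a log2 fold change of -3.08 (SE 0.68, 95% confidence interval -4.61 to -1.55). By edgeR its unadjusted p was 0.00132 and its adjusted p 1, and by DESeq2 its adjusted p was 0.00231. Leaving out single libraries moved the value from -4.42 (without Sl/Sl endothelium replicate 2) to -2.38 (without Sl/Sl endothelium replicate 1). Clusters gave no such difference for Cdc6, whose counts there were 764 and 715 in wild type against 743 and 1220 without Kitl.

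Pole2 and Prim2 were the others at an unadjusted p under 0.05. Pole2, a subunit of polymerase epsilon, had RPKM of 60.5 and 46.8 in wild type against 16.6 and 35.3 in Sl/Sl endothelium (log2 fold change -1.02, 95% confidence interval -1.98 to -0.07). Prim2, the large subunit of primase, had 35.3 and 21.4 against 4.34 and 14.4 RPKM (-1.56, interval -3.03 to -0.10). Leaving out single Sl/Sl endothelium libraries moved Pole2 to -1.70 or -0.56 and Prim2 to -2.70 or -0.93, the values farther from 0 being those without replicate 2. Next was Rfc1, with 20.6 and 18.3 against 11.6 and 10.2 RPKM (-0.82, interval -1.72 to 0.08). Both Sl/Sl libraries were below both wild type ones for 9 of the 45, against 14.9% of all genes tested, and above for 6, against 13.5%. The summed level of the polymerases and primase was 226 and 233 RPKM in wild type against 155 and 171 in Sl/Sl endothelium, with 6 of the 9 fold changes negative, while the MCM core stood at 230 and 222 against 293 and 175.

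Whether the genotype difference itself differed between clusters and endothelium was tested as an interaction, in which 0 of the 45 and 0% of all genes tested passed (edgeR's quasi-likelihood test). At an unadjusted p under 0.05 there were 2 of the 45 and 5.29% of all genes tested, and DESeq2 called 1 of the 45, Cdc6, and 175 genes in all (1.26%). Cdc6 had a difference of 3.35 on the log2 scale (SE 0.91, 95% confidence interval 1.31 to 5.39), with an adjusted p of 0.902 by edgeR and 0.0474 by DESeq2. Mcm5 had -0.91 (SE 0.38, interval -1.76 to -0.06, edgeR adjusted p = 0.902), Pole2 had 1.12 (interval -0.21 to 2.46) and Mcm2 -1.12 (interval -2.56 to 0.32). Leaving out single libraries, Cdc6 ran from 2.65 to 4.71, Pole2 from 0.66 to 1.82 and Mcm2 from -1.60 to -0.33, in each case between the fits without Sl/Sl endothelium replicate 1 and without replicate 2. The median half-width of the intervals was 1.23. Among the 4 other lists, 0 genes passed in the comparisons of genotypes or in the interaction, where DESeq2 called 0 as well. At an unadjusted p under 0.05 they held 0 genes between genotypes in clusters.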

How the data were processed

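The deposited values were counts on each gene in each library, neither normalized nor pooled. The authors made SMARTSEQ2 libraries, which carry no molecular identifiers, aligned the reads to mm9 with STAR (v2.4.2a) and counted them with featureCounts (Subread v1.4.5). The annotation used, the strand setting and the unit of counting, reads or pairs, are not given in the sources used here, so genes that overlap can share reads. Samples were grouped by their titles.

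Counts were tested with edgeR 4.0.16 in R 4.3.3 on all 13908 genes that filterByExpr kept of 24015, with TMM factors, 1 model of the 4 groups, the quasi-likelihood test (4 residual and 5.24 prior degrees of freedom) and Benjamini-Hochberg adjustment over all genes tested, at a threshold of 0.1. DESeq2 1.42.0, RLE factors, other filters, the replicate block, 4-library fits and leaving out each library were alternatives. DESeq2 was fitted to every gene with counts under its own filter, and percentages given for it are relative to the 13908 genes. RPKM used the exon lengths of the table and plain totals, and separation of libraries was judged on TMM-scaled counts. Confidence intervals were 95% and came from the fit. The code was tested on simulated data. With 2 libraries against 2, an exact permutation test could not give a p below 0.333, so none was used.

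Named were, in each comparison, the genes past the threshold (at most the 10 with the smallest p, or the 4 with the smallest p where none passed), the highest and the lowest gene of each role group, and at most 4 genes past the threshold of each other list. The 45 genes and the lists were chosen with earlier results of these data known.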

Additional observations from a re-analysis of the deposited data

Results flagged for a closer look

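Mcm5, the MCM core gene, was singled out because the genotypes were separated in opposite directions in the 2 cell types. Both Sl/Sl libraries were below both wild type libraries in clusters (49.7 and 65.3 against 80.5 and 71.0 RPKM) and above them in endothelium (38.1 and 42.0 against 26.6 and 29.8 RPKM). The interaction was -0.91 on the log2 scale (SE 0.38), with an adjusted p of 0.902 by edgeR's quasi-likelihood test and 0.499 by DESeq2. Such opposite separation was found for 684 of the 13908 genes tested (4.92%) and for 1 of the 45 replication genes.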

How the results depend on the processing

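Of the 45 genes, 12 to 17 were called higher in clusters over both genotypes when 1 library was left out (median log2 fold change 0.69 to 0.81, 1563 to 2087 genes in all), 0 to 13 in wild type (0.71 to 0.89, 592 to 1329 genes) and 0 to 7 in Sl/Sl (0.53 to 0.76, 182 to 633 genes). Between genotypes and in the interaction 0 of the 45 were called in these fits, with medians of -0.21 to -0.04 in clusters (6 to 76 genes), -0.10 to 0.10 in endothelium (0 to 1 genes) and -0.23 to 0.02 for the interaction (0 to 27 genes). The ratio of summed RPKM stayed between 1.63 and 1.69, and was 1.52 with TMM-scaled totals. At an adjusted p of 0.05, 1488 genes were called over both genotypes. There Rrm1, Rfc4, Dut, Pold3, Fen1 and Rpa1 lost their calls, at adjusted p of 0.0524 to 0.087 by edgeR's quasi-likelihood test. The stricter threshold left 3 of the 45 and 657 genes in wild type, and 2 of the 45 and 222 genes in Sl/Sl. With no filter on low counts, wild type gave 16 of the 45 and 1990 genes, Sl/Sl 1266 genes, the genotypes 253 genes in clusters and 65 genes with 1 of the 45 in endothelium, and the interaction 179 genes with 1 of the 45, in both cases Cdc6. With at least 10 counts in every library, wild type gave 12 of the 45, with the total over all genes not given here. That filter gave 9 genes between genotypes in clusters. DESeq2 called 3616 genes over both genotypes, 16 of the 45 and 2580 genes in wild type, 10 of the 45 and 1614 genes in Sl/Sl, and between genotypes 175 genes in clusters, 179 with 1 of the 45 in endothelium and 175 with 1 of the 45 in the interaction. Fits on the 4 libraries compared gave 2 of the 45 and 211 genes in Sl/Sl, and 2 genes between genotypes in endothelium. Apart from fits with fewer libraries or a stricter threshold, the cause of these differences was not tested. The called genes kept their direction in these fits, while the medians of the 45 between genotypes in endothelium and in the interaction, both near 0, changed sign between fits.

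The labels do not say what a replicate number stands for, and the deviations of same-numbered libraries correlated between groups at -0.11 to 0.16, so the block was kept as an alternative. The replicate number as a block left 18, 7 and 6 of the 45 called over both genotypes, in wild type and in Sl/Sl. The totals over all genes called with the block in these comparisons of cell types are not given here. These counts therefore cannot be set against the share of all genes. Between genotypes in clusters the block gave 8 genes, 0 of them among the 45. Of the 6 genes called in Sl/Sl, Mcm10 lost its call with the block (adjusted p = 0.121 by edgeR's quasi-likelihood test), while Rfc2 gained one (adjusted p = 0.0316). Precision was limited by 2 libraries per group, with replicates of the 45 genes up to 11.4-fold apart and a median interval half-width of 0.87 on the log2 scale between genotypes.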
